A study of Pinus armandii with 6 samples.

Results

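Among the transcripts of Pinus armandii seed kernels are 121 abundant ones that the deposited annotation leaves without a name. They are unigenes, transcript sequences assembled from the reads, whose description, gene symbol and KEGG pathway are all blank and whose mean level over 6 libraries was at least 50 CPM, the unigene's count per 1000000 counts of its library. They make up 0.186% of the 65117 unigenes in the table, 0.361% of the 33531 with those 3 entries blank, and 2.68% of the 4509 unigenes that reach the same abundance. They were chosen by this measured abundance, so their high level is a description and not a finding. Just inside the limit stood Unigene0028225, Unigene0075010 and Unigene0035165, with means of 52.5, 51.1 and 51.0 CPM, and just outside it Unigene0023515, Unigene0067071 and Unigene0015765, with 49.7, 49.6 and 49.5 CPM.

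The Chinese white pine is grown for its edible nuts, and its kernels were profiled by RNA sequencing in 2 groups. One was harvested in September (3 libraries) and one in August (3 libraries). The labels call the libraries biological replicates, but give no cultivar, tree or treatment that sets the groups apart. They also do not state how many trees or cones stand behind a library. P-values therefore set the month difference against the spread between these libraries, which may in part be technical.

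A pine kernel is an embryo embedded in the megagametophyte, a storage tissue that fills with protein and oil before the seed dries. A transcript can lack a database hit because it holds no open reading frame, because it covers only an untranslated end of a messenger RNA, or because its protein has no close relative in the databases searched. An abundant one can be a real messenger, a noncoding RNA or an assembly product. The table holds no sequence of these unigenes, so which of these applies to each was not tested, and no sequence or genome position is given.

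The September libraries held 14845783, 17379628 and 12849649 counts, and the August libraries 16131203, 13610427 and 15734657. Seed markers were present in every library, with summed levels of 595 to 625 CPM in September and 342 to 349 CPM in August for 3 vicilin unigenes, and 1070.0 to 1236 CPM in September and 2370.4 to 2602 CPM in August for 3 oleosin unigenes. Of the other storage and oil-body markers, legumin, 2S albumin and caleosin (354 to 364 CPM in September and 277 to 323 CPM in August) were higher in each September library, and 10 late embryogenesis abundant unigenes lower. Of the photosynthetic markers, 4 antenna unigenes summed to 8.63 to 10.7 CPM in September and 0.763 to 1.80 CPM in August, and the Rubisco small subunit stood at 212 to 256 CPM in September and 126 to 172 CPM in August. Of the markers of lignifying tissue, 11 laccase unigenes summed to 23.8 to 112 CPM in September and 51.0 to 65.8 CPM in August, 7 dirigent unigenes to 10.6 to 21.3 CPM in September and 13.7 to 22.9 CPM in August, and cinnamyl alcohol dehydrogenase stood at 44.1 to 47.8 CPM in September and 59.1 to 71.7 CPM in August. None of these markers was at 0, and their part in the results was not tested. The second August library stood apart. It held 41 unigenes at 50 CPM or more that were under 1 CPM in each of the other libraries, whereas the other 5 libraries held 0 or 1 such unigene each.

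The label of these transcripts holds only in part. None of the 121 had a best hit, a symbol or any KEGG entry, but 25 carried a Gene Ontology (GO) term or a transcription factor family, columns that the choice did not use. The other 96 had no entry in any annotation column. GO terms assigned to an unnamed transcript mark resemblance and not a shown function, and some of those given here are not plant processes.

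The 121 unigenes took a larger share of the counts in September. They held 4.55%, 4.48% and 4.53% of the counts in the September libraries, against 3.05%, 3.10% and 2.84% in the August libraries. The months did not overlap, and the mean share was 4.52% ± 0.0357 in September and 3.00% ± 0.141 in August (SD, n = 3 each), a ratio of 1.51. The share sums the same levels by which the unigenes were chosen. Of them, 25 reached 50 CPM in September alone and 9 in August alone, so the ratio describes the list and depends in part on the choice. In whole kernels, fewer cells of a type and less RNA per cell cannot be told apart. The 10 most abundant accounted for most of the difference in share, with 2.66% ± 0.0569 in September and 1.41% ± 0.106 in August. The remaining 111 held 1.86% ± 0.0244 in September and 1.59% ± 0.0731 in August. All other unigenes without those 3 entries, 33410 of them, held 2.45% ± 0.0729 in September and 1.79% ± 0.213 in August.

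**Figure D1:**
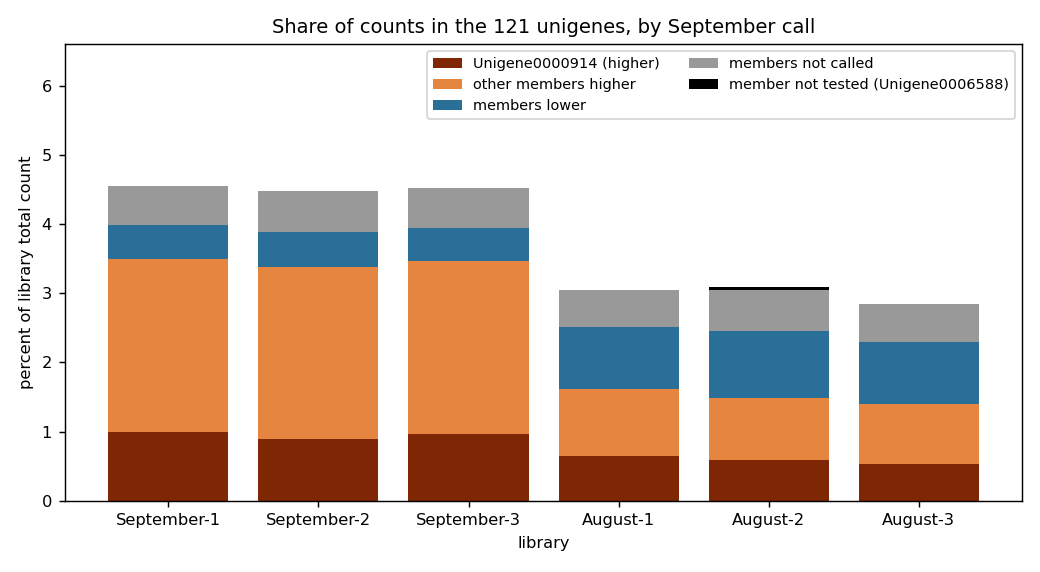
Percent of each library's total count held by the 121 abundant unigenes without a hit, stacked by their September call, with the September libraries on the left. The stacks reach 4.48% to 4.55% in September and 2.84% to 3.10% in August; the part held by unigenes called higher is the larger one in September, and the black sliver of Unigene0006588 appears in the second August library.

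Most of these unigenes differed between the months. Of 120 that entered the test, 60 were higher in September and 42 lower at an adjusted p under 0.05 (edgeR's quasi-likelihood test, Benjamini-Hochberg), against 35.4% higher and 32.5% lower among all 23216 tested unigenes. Together 85.0% were called, against 67.8% of all tested. The libraries of the months did not overlap in 98 of the 120 (81.7%, against 72.9% of all tested). All tested unigenes include many of low counts. Among annotated unigenes with a mean of 50 CPM or more, 75.9% were called and 79.4% did not overlap. Of those annotated ones, 24.5% were higher and 51.4% lower. The median log2 fold change, September over August, was 0.22 (quartiles -0.70 and 1.53), against 0.03 (-0.54 and 0.99) over all tested unigenes.

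Large rises were more frequent than among the annotated abundant unigenes and less frequent than among the less abundant ones without a hit. A called rise of 2-fold or more was measured in 35 of the 120 (29.2%, against 24.3% of all tested) and a called fall of that size in 16 (13.3%, against 12.4%), shares near those of all tested. Among the 4388 unigenes with an annotation and a mean of 50 CPM or more, those shares were 5.97% and 7.84%, and their median log2 fold change was -0.19. Rises of 4-fold or more numbered 23 (19.2%, against 14.8% of all tested and 2.12% of the annotated abundant ones), and such falls 4 (3.33%, against 4.84% and 0.752%). Most of these 23 were under 50 CPM in August, such as Unigene0050771 (5.89 CPM), and reached the limit through September alone. All 4 falls were under 50 CPM in September, such as Unigene0028225 (6.97 CPM). Both counts therefore depend in part on the choice. The 4246 tested unigenes without a hit and under 50 CPM had 48.2% with a rise of 2-fold or more, 15.5% with such a fall and 33.9% with a rise of 4-fold or more. Another group, 667 abundant unigenes whose best hit reads unknown or hypothetical and which have no symbol, had 6.30% with a rise of 2-fold or more and 13.2% with such a fall. These shares were not tested against each other, since the lists were chosen with results known.

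Part of the count follows from the choice. The mean reached 50 CPM in both months for 87 of the unigenes, in September alone for 25 and in August alone for 9. Those 34 passed the limit in 1 month only, which by itself favours a difference between the months. Among the 87, 35 were higher (40.2%, against 35.4% of all tested) and 34 lower (39.1%, against 32.5%), shares near those of all tested. The annotated unigenes with a mean of 50 CPM or more, not limited in each month, were 24.5% higher and 51.4% lower. The median log2 fold change of the 87 was 0.08.

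**Figure D2:**
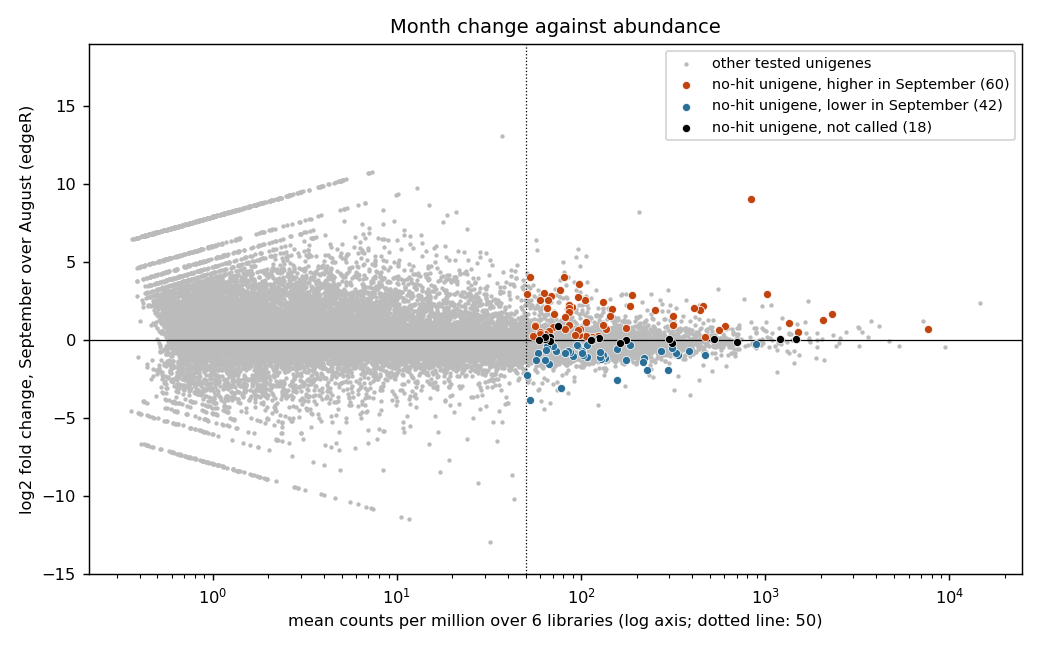
Log2 fold change, September over August, against the mean CPM over 6 libraries (log axis) for all tested unigenes (grey) and for the abundant unigenes without a hit, coloured by call (60 higher, 42 lower, 18 not called). Right of the dotted line at 50 CPM most grey points lie close to 0, whereas many of the coloured points lie above 1, and Unigene0038246 sits alone at 9.07.

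Length was read from the ratio of count to FPKM, the deposited level scaled to transcript length and library total. It fell within 0.05 of a whole number for 117 of the 121. The median was 1843 bases (quartiles 1151 and 3281, range 535 to 8583). Unigenes with the same blanks but a lower abundance had a median of 382 bases, and the annotated abundant ones one of 2618 bases. Under 1000 bases were 22 of the 121 (18.2%), against 89.7% of the less abundant unigenes without a hit and 3.62% of the annotated abundant ones. Over 3000 bases were 36 (29.8%), against 0.733% and 40.0%. Their median length thus lay between those of the other groups and nearer to that of the annotated abundant unigenes. CPM is not scaled to length, so a limit in CPM favours long transcripts. The contrast with the less abundant unigenes therefore depends in part on the choice. With a limit of 50 on the mean FPKM instead, the median was 1227 bases.

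The longest were Unigene0000997 (8583 bases), Unigene0048564 (7705) and Unigene0073691 (7021), and all 3 were higher in September. Unigene0048564 had 116, 124 and 115 CPM in September and 78.6, 68.8 and 75.2 CPM in August, and Unigene0073691 98.6, 143 and 119 CPM in September and 33.6, 39.1 and 54.3 CPM in August (log2 fold changes 0.67 and 1.51, adjusted p = 1.4e-05 and 3.4e-05 by edgeR). The shortest were Unigene0014287 (535 bases), Unigene0007780 (593) and Unigene0037026 (676), of which only Unigene0007780 was called, lower in September. Of the 36 over 3000 bases, 24 were higher (66.7%, against 35.4% of all tested) and 6 lower (16.7%, against 32.5%), with a median log2 fold change of 1.24. Many of these 24 were under 50 CPM in August, such as Unigene0053832 (16.8 CPM), and reached the limit through September alone. Of the 6, Unigene0047668 was under 50 CPM in September (42.7 CPM). The split thus depends in part on the choice, and all tested unigenes were not matched to the 36 in abundance or length. Of the 22 under 1000 bases, 10 were higher (45.5%) and 8 lower (36.4%), with a median of 0.22.

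**Figure D3:**
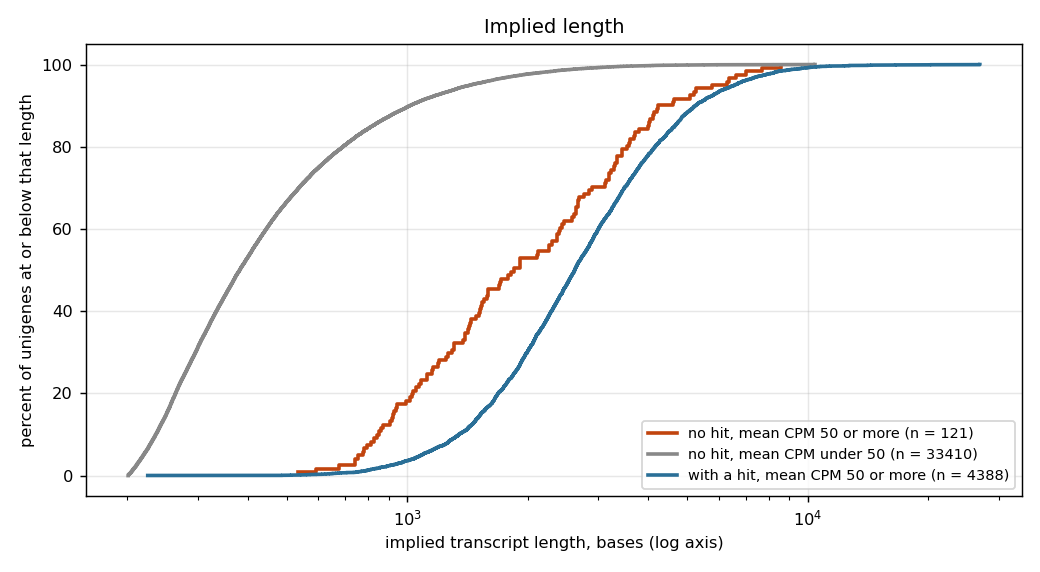
Cumulative percent of unigenes at or below a given implied length in bases (log axis) for the 121 abundant unigenes without a hit, the 33410 less abundant ones and the annotated abundant ones. The curve of the 121, with a median of 1843 bases, runs left of the annotated ones (2618) and far right of the less abundant ones (382). Under 1000 bases are 18.2% of the 121 and 3.62% of the annotated ones.

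A few transcripts carried most of the counts. Unigene0000914 alone held 20.5% of the summed mean CPM of the 121, and the first 10 held 54.2%. Unigene0000914 (4644 bases) had 10025, 8924 and 9606 CPM in September and 6487, 5895 and 5252 CPM in August. It ranked the third of all unigenes by counts in each month. Every September library lay above every August library (edgeR log2 fold change 0.70, SE 0.0857, adjusted p = 5.5e-05). Per length its level was 2049.6 ± 119.6 FPKM in September and 1266 ± 133 FPKM in August (SD, n = 3 each), rank 8 in September.

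Unigene0000303 (4050 bases) and Unigene0001647 (3192 bases) followed. Unigene0000303 had 3517, 3728 and 3330.4 CPM in September and 1246, 1047 and 973 CPM in August. Unigene0001647 had 2976, 2899.9 and 2905 CPM in September and 1316, 1223 and 1099 CPM in August. Both rose without overlap between the months, by log2 fold changes of 1.70 (SE 0.0917, adjusted p = 2.6e-07) and 1.28 (SE 0.0722, adjusted p = 3.5e-07). Unigene0068605 (2406 bases), also without any entry, rose to 1846 ± 107 CPM in September, against 858 ± 117 CPM in August.

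Per length the order was different. The 5 with the highest mean FPKM were Unigene0000914, Unigene0069514, Unigene0001647, Unigene0048993 and Unigene0000303. Unigene0069514, of only 868 bases, stood at 931 ± 70.9 FPKM in September and 1115 ± 132 FPKM in August. Unigene0048993, of 925 bases, stood at 743 ± 78.0 FPKM in September and 465 ± 17.4 FPKM in August. Among the 100 unigenes with the highest FPKM, 11 in September and 13 in August were of this kind.

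**Figure D4:**
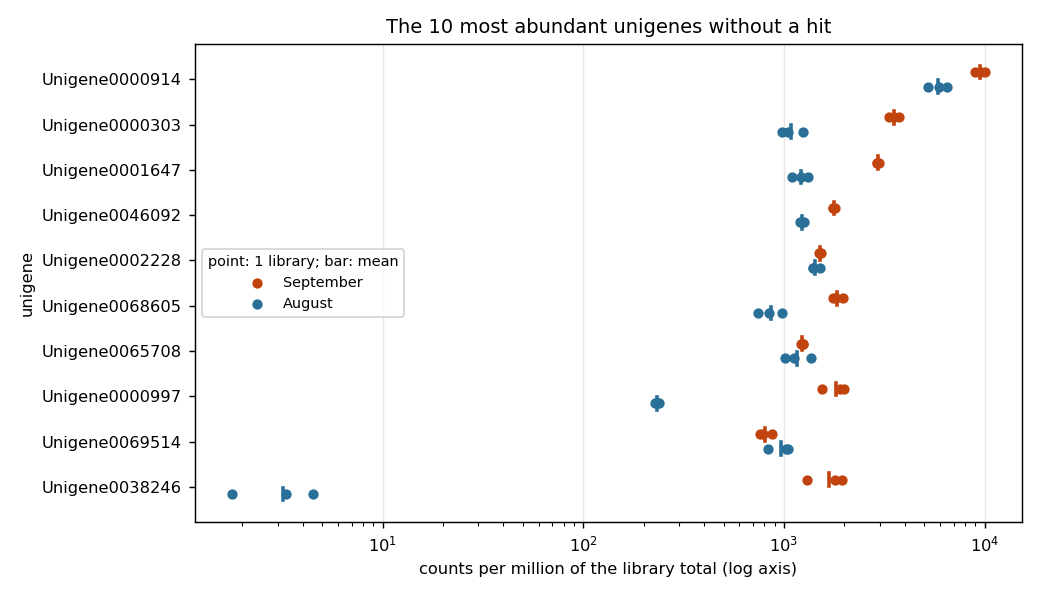
CPM in each library (log axis) of the 10 abundant unigenes without a hit with the highest mean CPM, September above August in each row; points are libraries and bars are means of 3. Unigene0000914 is at 8924 to 10025 CPM in September and 5252 to 6487 CPM in August, and Unigene0038246 at 1302 to 1947 CPM in September and 1.78 to 4.48 CPM in August.

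Unigene0038246 was close to absent in August. This 2586-base transcript had 1947, 1302 and 1790.1 CPM in September and 3.29, 4.48 and 1.78 CPM in August. The August values rest on 53, 61 and 28 counts. Its log2 fold change was 9.07 (SE 0.254, adjusted p = 1.2e-08), and it stood at rank 36 by counts in September and at rank 15182 in August. Its coefficient of variation within months, averaged over both, was 31.3%, against a median of 8.97% over the 120 tested.

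The longest, Unigene0000997, also rose strongly. It had 1540.2, 1987 and 1906 CPM in September and 238, 235 and 227 CPM in August, a log2 fold change of 2.96 (SE 0.0938, adjusted p = 1.8e-08). The other large rises started from low August levels. Unigene0050771 (3185 bases) had 104, 95.6 and 98.4 CPM in September and 8.37, 4.92 and 4.39 CPM in August, and Unigene0001623 (4007 bases) had 143, 173 and 139.8 CPM in September and 11, 8.38 and 8.58 CPM in August. Their log2 fold changes were 4.07 and 4.03. Unigene0002069, Unigene0000012, Unigene0031377 and Unigene0075010 rose by log2 fold changes of 3.63, 3.24, 3.05 and 2.94. None of these 8 carried an entry in any annotation column.

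The falls were smaller. Unigene0028225 (1813 bases) had 7.68, 5.06 and 8.17 CPM in September and 102, 96.6 and 95.9 CPM in August, a log2 fold change of -3.83 (SE 0.143, adjusted p = 3.7e-08). Unigene0070389 (1311 bases) had 16.0, 17.7 and 15.9 CPM in September and 116, 147 and 156 CPM in August, a log2 fold change of -3.07. The months did not overlap in either transcript. The coefficient of variation reached 24.0% among the September libraries of Unigene0028225 and 14.7% among the August libraries of Unigene0070389. Unigene0046204 and Unigene0035165 fell by 2.57 and 2.21 on the log2 scale. Unigene0024827, at 125 ± 24.8 CPM in September and 470.3 ± 54.6 CPM in August, and Unigene0071885, at 96.4 ± 13.6 CPM in September and 363 ± 18.1 CPM in August, each fell by 1.91. Unigene0013043 and the short Unigene0007780 fell by 1.53 and 1.38. None of these 8 carried an annotation entry either.

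**Figure D5:**
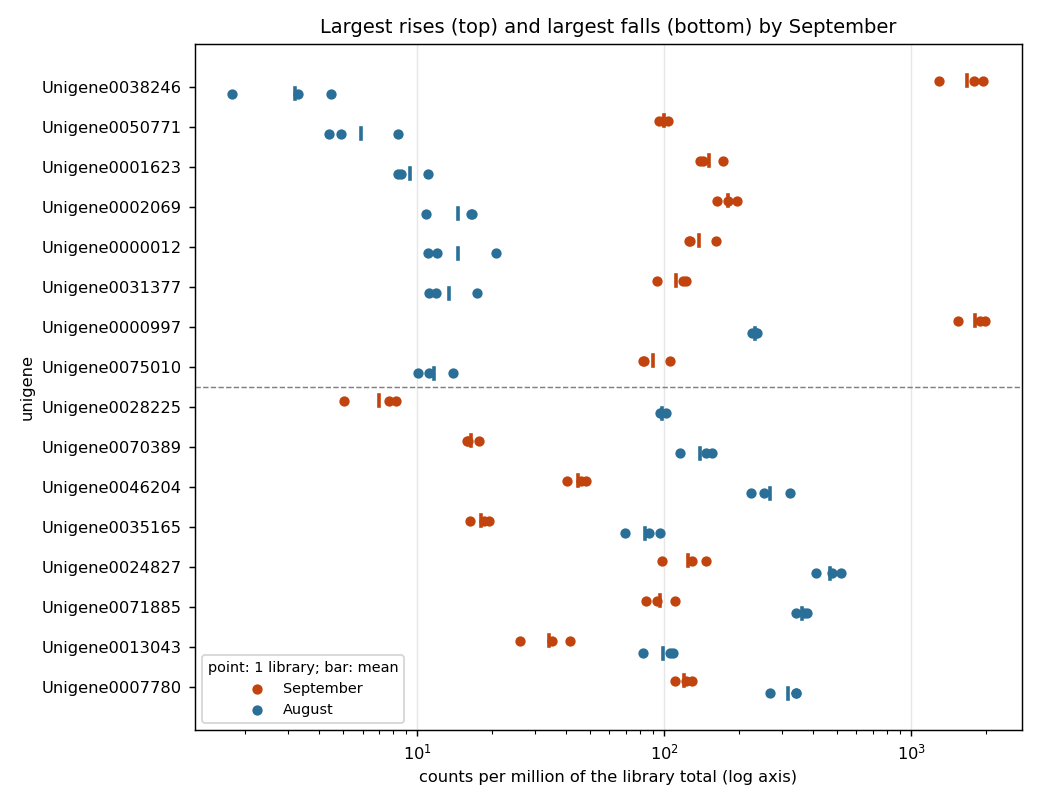
CPM in each library (log axis) of the 8 largest rises (above the dashed line) and the 8 largest falls (below it), chosen among called unigenes whose months do not overlap; September above August in each row, bars are means of 3. Unigene0038246 and Unigene0000997 are the rises with over 1000 CPM in September, and the falls span log2 fold changes of -3.83 to -1.38.

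The 25 unigenes with a GO term or factor family spanned a narrower range of change. Of these, 13 were higher (52.0%, against 35.4% of all tested) and 7 lower (28.0%, against 32.5%). Their log2 fold changes ran from -1.09 to 2.21 around a median of 0.20. A called rise of 2-fold or more was seen in 4 (16.0%, against 24.3% of all tested) and such a fall in 1 (4.0%, against 12.4%). Among the 95 tested without any entry, the same limit was passed by 31 rises (32.6%) and 15 falls (15.8%), the falls near the share over all tested. Whether the shares of the 25 and the 95 differ was not tested.

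Lipid binding and lipid transport were the GO terms of 3 of them, placed in the extracellular region. All 3 also carried a term for lipoprotein metabolism, Unigene0046092 one for the nucleus and Unigene0014607 one for regulation of transcription. Lipid carriers can move fatty acids and waxes between membranes and to the cell surface, but the terms do not say which lipids are bound. Unigene0046092 (2665 bases) had 1764, 1759 and 1801 CPM in September and 1201, 1228 and 1265 CPM in August. It rose without overlap (log2 fold change 0.53, SE 0.0515, adjusted p = 1.1e-05). Unigene0002228 (3434 bases) had 1519.8, 1496 and 1529.8 CPM in September and 1388, 1398 and 1509 CPM in August. Its months overlapped, and it did not pass (log2 fold change 0.09, adjusted p = 0.183), except with upper quartile scaling (0.21, adjusted p = 0.00763). Unigene0014607 fell by 0.31 on the log2 scale (adjusted p = 0.0208), a call lost without the third September library (adjusted p = 0.0909), without the second August library (0.0681) and with upper quartile scaling (0.123).

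Seed and stress terms fell on short, abundant transcripts. Unigene0050002 (1202 bases), whose term is embryo development ending in seed dormancy, had 827, 778 and 769 CPM in September and 458, 376 and 441 CPM in August (log2 fold change 0.90, SE 0.0754, adjusted p = 4.2e-06). Unigene0048993 (925 bases), with terms for the nucleus, zinc binding and the response to water deprivation, had 756, 692 and 612 CPM in September and 441, 438 and 412 CPM in August (0.68, SE 0.0771, adjusted p = 3.3e-05). In both, all September libraries lay above all August ones.

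Protease terms stood on 2 transcripts with small changes. Aspartic endopeptidases cut proteins within the chain, and in seeds some act on storage proteins. Unigene0069514 had 877, 788 and 759 CPM in September and 1047, 1020.3 and 837 CPM in August. Its months overlapped, and its fall of 0.26 on the log2 scale (adjusted p = 0.0301) was not called when the second September library (adjusted p = 0.0792), the third September library (0.116), the first August library (0.0713) or the second August library (0.0804) was left out, or with upper quartile scaling (0.208). Unigene0008477 rose by 0.20 (adjusted p = 0.00831), a call lost with no filter on low counts (adjusted p = 0.0936).

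Transcription factor families were given for 2. Unigene0052508 (GeBP, 6640 bases) stood at 176 ± 8.89 CPM in September and 175 ± 20.7 CPM in August (log2 fold change 0.01, SE 0.0831, adjusted p = 0.943). Unigene0052415 (Trihelix, a family of DNA-binding proteins, 3801 bases) stood at 154 ± 4.81 CPM in September and 172 ± 13.5 CPM in August (-0.16, adjusted p = 0.0594). Unigene0052415 was called without the second August library (-0.24, adjusted p = 0.00831) and with no filter (adjusted p = 0.0351) or a replicate block (adjusted p = 0.0461).

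Chromosome segregation and condensation were the terms of 3 transcripts that went both ways. Unigene0035710 rose by 0.73, and Unigene0042541 and Unigene0047668 fell by 1.09 and 0.79 on the log2 scale. For work on DNA, Unigene0000209, with a DNA polymerase term, rose by 0.32, and Unigene0034640, with DNA repair and recombination terms, fell by 0.77. Unigene0005563, with nucleic acid and zinc binding terms, rose by 0.28. Unigene0044729, with an endodeoxyribonuclease term, stood at 114 ± 25.9 CPM in September and 114 ± 3.95 CPM in August.

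The largest rises among the transcripts with a term were in Unigene0074845, Unigene0044424 and Unigene0002318. Unigene0074845 (1262 bases), with terms for cell wall structure and nucleotide-excision repair, had 292, 316 and 299 CPM in September and 73.3, 68.3 and 54.8 CPM in August (log2 fold change 2.21, SE 0.0988, adjusted p = 1.0e-07). Unigene0044424 (828 bases), with the term of threonine ammonia-lyase, the enzyme that opens isoleucine synthesis, had 157, 141 and 139.9 CPM in September and 30.5, 30.3 and 37.6 CPM in August (2.16, SE 0.0929, adjusted p = 8.7e-08). Unigene0002318 (5190 bases), with a phosphate transporter term, rose by 1.69. No library of one month reached the range of the other in these transcripts.

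Other terms were those of single transcripts. Unigene0009864, with an ADP binding term, rose by 1.58, and Unigene0038239, with a ribosome term, by 0.95. Unigene0030838, with an N-acyltransferase term, and Unigene0030295, with protein binding, fell by 0.52 and 0.62 on the log2 scale. Unigene0021061, with a structural molecule term, rose by 0.29 (adjusted p = 0.0101), which did not pass (adjusted p = 0.0615) when the third August library was left out. Unigene0065708 (6273 bases), with zinc binding, had 1246, 1240 and 1222 CPM in September and 1117, 1369 and 1015 CPM in August. It did not pass (log2 fold change 0.09, adjusted p = 0.446), and without the second August library, its highest, it was called (0.20, adjusted p = 0.0248).

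In all, 18 of the 120 were not called, with log2 fold changes from -0.20 to 0.89. The most abundant were Unigene0002228, Unigene0065708 and Unigene0049490. Unigene0049490 (6377 bases, no entry) had 623, 809.7 and 604 CPM in September and 714, 793 and 677 CPM in August (log2 fold change -0.10, SE 0.106, adjusted p = 0.439), and was called without the second September library (-0.24, adjusted p = 0.025). The 67 unigenes not named by the rule, of 54.5 to 525 CPM and 739 to 5093 bases, comprised 31 higher (46.3%, against 35.4% of all tested), 27 lower (40.3%, against 32.5%) and 9 not called, with log2 fold changes from -1.30 to 2.86.

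Libraries of a month differed widely in a few of these transcripts. Unigene0000952 (3610 bases) had 181, 269 and 546 CPM in September and 61.9, 36.1 and 34.4 CPM in August, a mean coefficient of variation within months of 46.1%. It was still called (log2 fold change 2.91, SE 0.382, adjusted p = 8.7e-05). Unigene0073987 (1049 bases) had 43.6, 154 and 94.0 CPM in September and 33.6, 63.4 and 61.1 CPM in August. Its months overlapped and it did not pass (0.89, SE 0.377, adjusted p = 0.0575), but it was called without the first September library (1.24, adjusted p = 0.00212), with no filter (0.85, 0.00626), with upper quartile scaling (1.01, 0.036) and with a replicate block (0.78, 0.00125). Unigene0028976 (1036 bases) had 141, 196 and 78.1 CPM in September and 24.2, 32.6 and 43.5 CPM in August and rose by 2.05 (SE 0.299, adjusted p = 1.7e-04). The median coefficient of variation was 8.97% over the 120, against 5.35% over the annotated abundant unigenes and 31.3% over the tested unigenes without a hit under 50 CPM.

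Unigene0006588 (1398 bases) belonged to 1 library. It had 0 counts in each September library and 1, 6779 and 1 counts in the August libraries, which is 498 CPM in the second of them. It was too low in the others to enter the test and is the only one of the 121 left out of it. A September count of 0 allows up to 3 counts over the 3 libraries, or 0.0666 CPM. Unigene0006588 was 1 of the 41 unigenes found at 50 CPM or more in the second August library alone. Of these 41, 27 had a best hit, 18 of them in Quercus and 3 in Carpinus. Their symbols included gel1 (2 unigenes), OLE1, STL1 and RIM101. These are used as names of yeast and mould genes, but a symbol alone does not tell the organism. No best hit in the whole table was in any of 40 fungal, bacterial or animal genera searched for by name. The databases behind the annotation are not given, so this absence cannot show whether RNA of such organisms was present. In contrast, 298 unigenes had their best hit under 15 names of single-celled eukaryotes such as Symbiodinium. These 298 summed to 184, 168 and 134 CPM in the September libraries and 438, 384 and 216 CPM in the August libraries, and 0 of them had a mean of 50 CPM or more. Their part in the results on the 121, which have no best hit, was not tested. Where Unigene0006588 comes from was not tested. It was the only one of the 121 that differed at least 2-fold between the second August library and the mean of the other August libraries.

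Some of the transcripts carry consecutive numbers. Across the table, 12.6% of 14594 consecutive pairs with hits shared the same best hit, so a consecutive pair can be pieces or copies of 1 gene, between which reads can be divided. There were 3 such pairs among the 121. Unigene0001965 (3229 bases) and Unigene0001966 (2894 bases) had means of 252 and 445 CPM and log2 fold changes of 1.91 and 1.96. Unigene0009864 and Unigene0009865 had log2 fold changes of 1.58 and 0.93, and Unigene0021061 and Unigene0021062 had 0.29 and -0.96. The members of the first pair changed alike, and those of the last one in opposite directions.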

How the data were processed

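The submitters' processing notes name fastp and RSEM without versions. How the unigenes were assembled and annotated, and whether strand was used, is not given in the sources used here. Per the file headers, the deposited columns are counts and FPKM. The authors' counts are estimated counts, without normalization, and were rounded here (8 of 390702 were not whole). The authors' FPKM divides them by library total and length, so length was recovered from the ratio of both. CPM scales counts to the library's total count.

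The months were compared with edgeR 4.0.16 (R 4.3.3): TMM factors, filterByExpr by month (minimum count 10, minimum total 15), quasi-likelihood F test, and p-values adjusted by Benjamini-Hochberg over 23216 tested unigenes. Standard errors were derived from F. The tested unigenes held 98.6% to 99.7% of a library's counts. The pipeline was tested on simulated data. DESeq2 1.42.0 was an alternative.

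The members and lists were chosen with earlier results of these data known. Named were the 10 highest by CPM, 8 largest rises and 8 largest falls without overlap, 3 longest and 3 shortest, 5 highest by FPKM, 3 on each side of the threshold, the 3 most abundant not called, the 3 most variable, those absent in a month and those with another annotation. Unigenes of the second August library alone, the consecutive pairs, the lists of genera and the symbols quoted were chosen after values were seen. Reads of near-identical copies may be divided between unigenes. The floor of 3 counts covers counting error only. Libraries differed by more than sampling noise in every pair (mean chi-square per unigene 5.05 or more).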

Additional observations from a re-analysis of the deposited data

How the results depend on the processing

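Of the 102 called unigenes, 92 were called in the same direction in each of 11 other fits (other scalings, DESeq2, no filter, replicate block, each library left out), and 0 were reversed. Leaving out 1 library gave 57 to 61 higher, 39 to 42 lower, a median log2 fold change of 0.17 to 0.25 and shares of 4.50% to 4.54% in September and 2.94% to 3.08% in August. Upper quartile scaling moved the median to 0.34 and that of all tested unigenes to 0.15 (TMM: 0.03), so the difference stayed at 0.19. With no filter the medians were 0.16 and 0.33, by construction over more low unigenes.

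Other limits changed the membership. A mean of 25 CPM gave 261 unigenes, 120 higher and 82 lower, median length 1840 bases. A mean of 100 CPM gave 66, with 29 higher, 25 lower, a median log2 fold change of 0.09 and 2421 bases. Requiring 50 CPM in each month left 35 higher, a median of 0.08 and 1715 bases. A mean of 50 FPKM gave 37 higher, a median of 0.11 and 1227 bases. The unigenes with no annotation entry had a median of 1799 bases. Choosing and fitting without the second August library, an alternative added after seeing the data, gave 124 unigenes, 118 of them among the 121, with 67 higher and 38 lower. The September share was 4.56% of the TMM-scaled size, and without Unigene0000914 the shares were 3.57% in September and 2.41% in August.

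The months share replicate numbers. The deviations of same-numbered libraries correlated at 0.079, 0.013 and 0.030, and those of differently numbered ones at -0.072 to 0.050. With 3 libraries per month, such weak values cannot decide whether the numbers pair the libraries. The replicate block gave 62 higher and 44 lower.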
